A study of Solanum lycopersicum with 39 samples.

Results

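The transcripts described here encode the ethylene receptors of tomato and the first 2 proteins that act below them. The set holds 9 genes of the 34075 listed in each table, namely the receptors *ETR1* (Solyc12g011330), *ETR2* (Solyc07g056580), *NR* (also called *ETR3*, Solyc09g075440), *ETR4* (Solyc06g053710), *ETR5* (Solyc11g006180), *ETR6* (Solyc09g089610) and *ETR7* (Solyc05g055070), the kinase gene *CTR1* (Solyc10g083610) and *EIN2* (Solyc09g007870). They were chosen by gene ID, with the version suffix ignored, and not by their expression, although earlier results of these data were known. All 9 were measured in leaves under heat and under drought, and all 9 passed the filter on low values in both tables. After 4 h at 42 °C, the mean level of *NR* fell to 0.308 times and that of *ETR4* to 0.298 times the level before heat. In that comparison 15.5% of all genes tested rose or fell. After scaling for the overall level of the libraries the falls were smaller, with log2 fold changes of -1.08 and -1.12, against -1.55 and -1.54 as deposited. Both genes rose again between 4 h and 12 h, in a comparison added after the values were seen. After 5 days without water 2 of the 9 genes rose, in a comparison in which 13.5% of all genes tested rose. *ETR4* was 3.56 times and *ETR6* 4.32 times as high as in the drought control, whose soil had only begun to dry. The other receptor genes, *CTR1* and *EIN2* did not meet the thresholds. A day after re-watering, *NR*, *ETR4* and *ETR6* had fallen again relative to day 5.

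Ethylene is a gaseous hormone that is known in leaves for its part in stress responses, leaf bending and senescence. Its receptors sit in the membrane of the endoplasmic reticulum. Without ethylene they keep the Raf-like kinase CTR1 active, which holds EIN2, a membrane protein, in an inactive state. Once ethylene binds, this hold is released, and part of EIN2 carries the signal towards the nucleus, where EIN3-type transcription factors switch on targets such as ERF genes. The order of these steps was worked out mainly in *Arabidopsis*. The receptors are thus negative regulators. Subfamily I receptors (*ETR1*, *ETR2* and *NR*) keep a complete histidine kinase domain, and subfamily II receptors (*ETR4*, *ETR5*, *ETR6* and *ETR7*) have a degenerate one. *NR* is the gene of the Never-ripe mutant, whose fruits do not ripen normally, and *NR*, *ETR4* and *ETR6* are known as the receptor genes whose transcripts increase in ripening tomato fruit.

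Leaves of cultivar M82 were taken from plants that the labels give as 38 days old (the methods of the study give a younger age for the heat series), grown at 25 °C and 70% humidity. The heat series comprised 18 libraries of plants held at 42 °C and 90% humidity for 2 h, 4 h, 12 h or 24 h (Heat-2h to Heat-24h), of plants returned to growth conditions for 1 day after 24 h of heat (Heat-Recovery), and of plants before heat (Heat-0h). The drought series comprised 21 libraries of plants left without water for 1 to 5 days (D-1d to D-5d), of plants 1 day after re-watering (D-Recovery), and of plants whose soil had only begun to dry, the drought control of the study (D-0d). Each of the 13 groups had 3 libraries. The overexpression and knockout lines of the study were made in another cultivar, Ailsa Craig, and were not among these groups. Temperature and humidity were raised together, and plants kept without stress until the later times were not analysed here, so that the effects of heat, humidity, time of day and age cannot be told apart. The methods call the heat samples biological replicates. For the drought samples no source used here says whether they came from separate plants, so that their p-values measure the spread between libraries, which may be technical. As the 2 tables may have been normalized apart from each other, heat and drought libraries were never tested against one another.

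The unit was FPKM, fragments scaled to transcript length and to the number of mapped fragments, which allows levels to be compared between genes. FPKM of all genes summed to between 559548 and 895476 in the heat libraries and to between 694973 and 815091 in the drought libraries, and the absolute depth is unknown. *HSP17.6*, a small heat shock gene, averaged 766.9 FPKM at Heat-2h and 0.690 FPKM at Heat-0h, a check of the heat label. At Heat-4h it averaged 29.7 FPKM. *HSP90*, also used for this check, averaged 207.3 FPKM at Heat-2h, but 40.9 FPKM at Heat-4h, against 46.6 FPKM at Heat-0h. Replicate 2 of Heat-12h stood apart, with 19.7 FPKM of *HSP17.6*, against 200.4 and 237.0 FPKM in the other libraries of that group. For *HSP90* it had 79.2 FPKM, against 211.4 and 183.0 FPKM. The 22 antenna genes of the light-harvesting complexes, used to check the leaf label, were detected in every library (at most 2 of them were listed at 0), but their summed FPKM lay between 1532.6 and 5113 in the 6 libraries of Heat-12h and Heat-24h, against 39019 to 59583 at Heat-0h. It lay between 23194 and 46366 at Heat-4h and between 12580 and 34948 at Heat-Recovery, and between 1174 and 5326 at D-5d, against 31171 to 38194 at D-0d. The part of such changes in leaf make-up in the results below was not tested. In bulk leaves, fewer cells of a type and less RNA per cell cannot be told apart.

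The libraries also differed in overall level. The median log2 fold change of all genes against Heat-0h was -0.21 at Heat-2h, -0.43 at Heat-4h, -0.17 at Heat-12h, -0.55 at Heat-24h and -0.53 at Heat-Recovery, and it was 0.26 at Heat-12h against Heat-4h and -0.36 at Heat-24h against Heat-12h. Against D-0d it lay between 0.05 and 0.23. The calls are therefore also given after median-ratio scaling, in which the FPKM of a library are divided by 1 factor, the median over genes of their ratio to the geometric mean of all libraries, which brings these medians to between -0.03 and 0.01. On this scale the share of higher genes among all genes called was 57.3% at Heat-2h (37.2% as deposited), 56.4% at Heat-4h (15.9%), 45.3% at Heat-12h (34.9%), 47.3% at Heat-24h (21.95%) and 43.6% at Heat-Recovery (5.01%). It was 32.7% at Heat-12h against Heat-4h (69.2% as deposited), 46.7% at Heat-24h against Heat-12h (20.2%), 33.2% at D-2d (45.9%), 34.1% at D-3d (46.6%) and 33.2% at D-4d (48.9%).

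A gene was counted as risen or fallen where its Benjamini-Hochberg adjusted p in limma did not exceed 0.05 and its level on log2(FPKM + 1) differed by 1 or more (the fold minimum). This scale understates changes of low genes such as *ETR6*. The exact permutation test of 3 libraries against 3 cannot give a two-sided p below 0.1. Where libraries are said not to overlap between groups, FPKM as deposited are meant unless scaling is named. The share of all genes tested without such overlap is not given. All comparisons with Heat-0h share its 3 libraries, and likewise those with D-0d.

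In the control leaves of each series the genes spanned a wide range of levels. *EIN2* was the highest, at 27.0 ± 3.53 FPKM at Heat-0h (SD, n = 3), followed by *NR* at 19.1 ± 2.46 FPKM and *ETR5* at 13.4 ± 1.06 FPKM. The libraries of these genes did not overlap with each other. *ETR1* at 9.99 ± 0.771 FPKM, *ETR4* at 9.05 ± 1.38 FPKM, *ETR2* at 7.76 ± 1.23 FPKM and *CTR1* at 7.13 ± 0.564 FPKM came next, and each overlapped with its neighbour in this order. *ETR7* followed at 6.28 ± 0.281 FPKM, just below the libraries of *CTR1*. *ETR6* was far below the rest at 1.17 ± 0.372 FPKM. In D-0d leaves *EIN2* was again the highest at 41.7 ± 1.94 FPKM and *ETR6* again the lowest at 1.00 ± 0.228 FPKM.

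**Figure D1:**
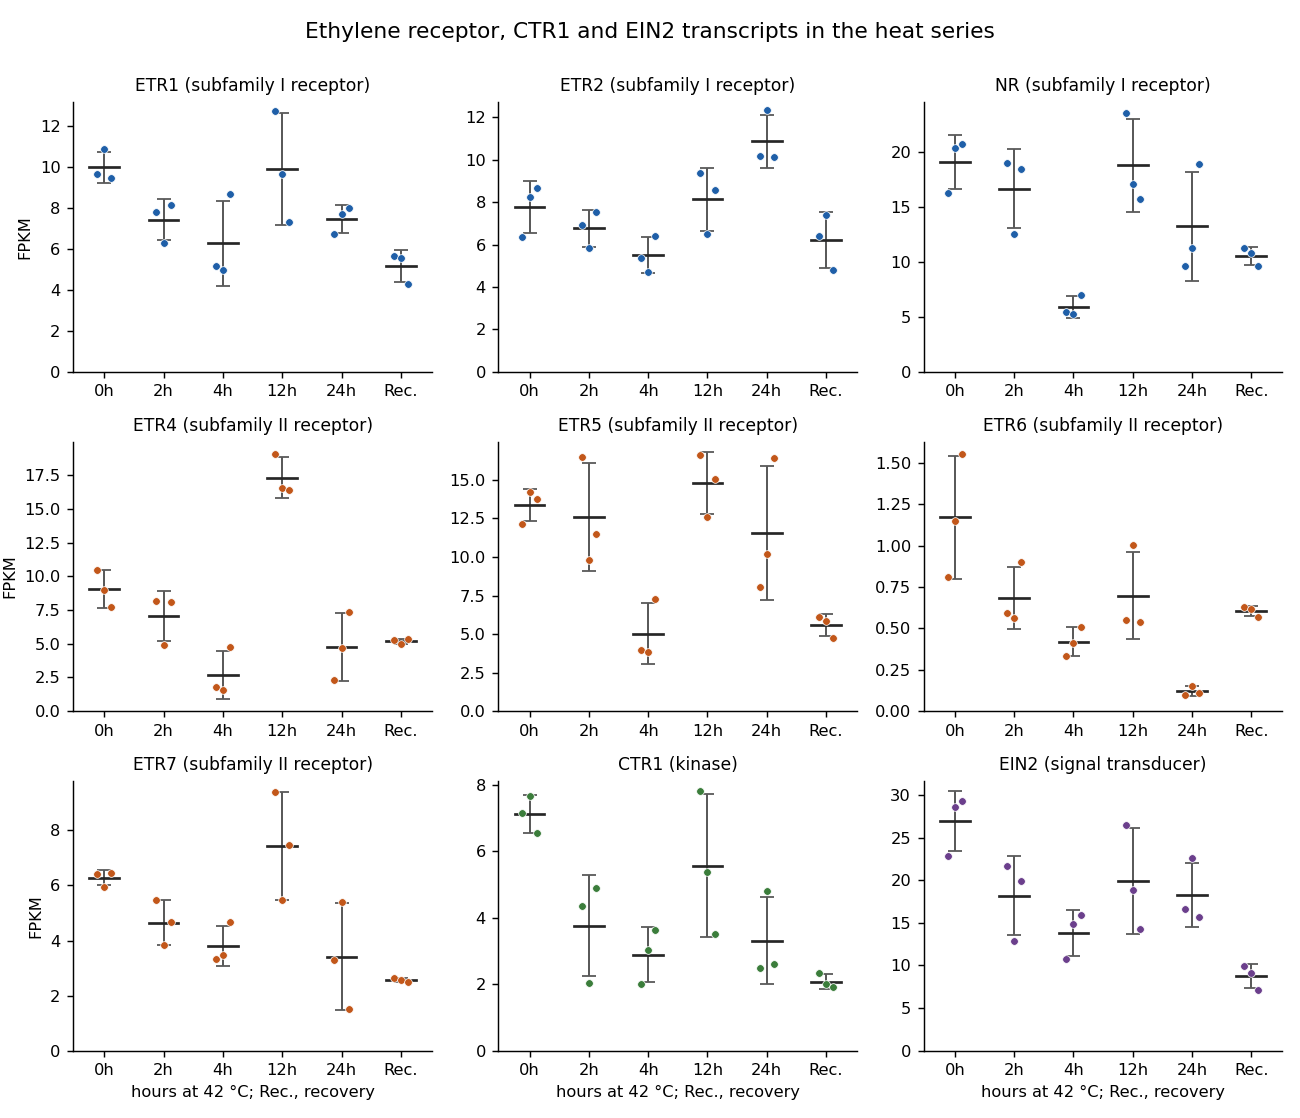
FPKM of each of the 9 genes (y axis, from 0, a scale of its own in each panel) in the heat series by hours at 42 °C, with recovery last (x axis). Points are the 3 libraries of a group, the horizontal line is their mean and the error bar is 1 SD. *NR* lay between 5.22 and 6.99 FPKM at Heat-4h, below its libraries of all other groups, and *ETR4* lay between 16.4 and 19.1 FPKM at Heat-12h, above its libraries of all other groups.

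In the first 2 h of heat none of the 9 genes rose or fell, while 5.56% of all genes tested were called in either direction. The largest shift was that of *CTR1*, with 4.35, 2.04 and 4.90 FPKM at Heat-2h, against 7.16, 7.68 and 6.55 FPKM at Heat-0h. Its libraries did not overlap, nor did those of *ETR1*, *ETR7* and *EIN2*. After scaling only those of *CTR1* did not overlap. The log2 fold change of *CTR1*, -0.83 (SE 0.30), had an adjusted p of 0.106 in limma.

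After 4 h, 4 of the 9 genes were called and all 4 had fallen, in a comparison in which 15.5% of all genes tested were called in either direction. *NR* had 5.42, 5.22 and 6.99 FPKM at Heat-4h, against 16.2, 20.3 and 20.7 FPKM at Heat-0h. All 3 heated libraries were below the lowest unstressed one, and the log2 fold change was -1.55 (SE 0.25, adjusted p = 0.000681). *ETR4* had 1.78, 1.55 and 4.76 FPKM at Heat-4h, against 10.5, 8.99 and 7.70 FPKM at Heat-0h. Replicate 3 stood above the other heated libraries but still below every unstressed one, and *ETR4* fell by 1.54 on the log2 scale (SE 0.33, adjusted p = 0.00422). The other 2 were *ETR5* and *CTR1*.

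*ETR5*, a subfamily II receptor like *ETR4*, had 3.99, 3.81 and 7.30 FPKM at Heat-4h, against 12.2, 14.2 and 13.7 FPKM at Heat-0h (log2 fold change -1.30, SE 0.27, limma adjusted p = 0.00355). *CTR1* had 2.01, 3.03 and 3.63 FPKM at Heat-4h, against 7.16, 7.68 and 6.55 FPKM at Heat-0h (-1.08, SE 0.30, adjusted p = 0.0160). Both sets of heated libraries lay wholly below the unstressed ones, as did those of every other gene of the set except *ETR2*. After scaling those of *ETR1* overlapped as well. The call of *CTR1* was lost without replicate 2 of Heat-0h (-1.04, adjusted p = 0.0582) or without replicate 1 of Heat-4h (-0.91, adjusted p = 0.0709). After median-ratio scaling 9.19% of all genes were called in either direction, and the calls of *NR* (-1.08, adjusted p = 0.00947) and *ETR4* (-1.12, adjusted p = 0.0319) were kept, while *ETR5* (-0.84, adjusted p = 0.0515) and *CTR1* (-0.66, adjusted p = 0.0252) were no longer called.

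The other genes did not pass at 4 h. *ETR6* (-0.60, limma adjusted p = 0.0238) and *EIN2* (-0.92, adjusted p = 0.0169) stayed short of the fold minimum, and *ETR1* (-0.63), *ETR2* (-0.43) and *ETR7* (-0.61) had adjusted p between 0.0533 and 0.136. The median log2 fold change of the 9 genes was -0.92 as deposited and -0.44 after scaling, beside -0.43 and -0.02 for all genes tested. All 9 values were negative as deposited, and after scaling that of *ETR2* was 0.01.

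Between 4 h and 12 h of heat 3 receptor genes rose, in a comparison in which 4.80% of all genes tested rose. This comparison was added after the values were seen, and Heat-4h held the lowest group mean of each of these 3 genes under heat. The adjusted p below are therefore not those of a comparison chosen in advance. *ETR4* had 19.1, 16.5 and 16.4 FPKM at Heat-12h, against 1.78, 1.55 and 4.76 FPKM at Heat-4h. On log2(FPKM + 1) this was the largest fold change of the set in the heat series, 2.41 (SE 0.33, limma adjusted p = 0.000263), with a ratio of means of 6.42. *NR* had 23.5, 17.1 and 15.6 FPKM at Heat-12h, against 5.42, 5.22 and 6.99 FPKM at Heat-4h (1.51, SE 0.25, adjusted p = 0.00115). *ETR5* had 16.6, 12.6 and 15.1 FPKM at Heat-12h, against 3.99, 3.81 and 7.30 FPKM at Heat-4h (1.42, SE 0.27, adjusted p = 0.00339). The groups did not overlap for these 3 genes, nor for the uncalled *ETR2*, *ETR6* and *ETR7*. After scaling they overlapped for *ETR2* and *ETR6*, and no longer for *ETR1* and *CTR1*. All 3 calls held after scaling (2.16, 1.23 and 1.16, adjusted p between 0.00120 and 0.0176), where 2.21% of all genes rose. With only these 2 groups in the fit, *NR* (adjusted p = 0.0598) and *ETR5* (adjusted p = 0.0948) were not called. The remaining 6 genes had positive differences between 0.25 and 0.79, with adjusted p between 0.0768 and 0.379.

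Against Heat-0h, none of the 9 genes was called at Heat-12h, while 24.2% of all genes were called in either direction. *NR*, *ETR5*, *ETR2*, *ETR1* and *ETR7* differed by between -0.04 and 0.19 on the log2 scale, and for *NR* the 95% interval of the difference ran from -0.56 to 0.49. *ETR4* was higher in every Heat-12h library than in any Heat-0h library, where it had 10.5, 8.99 and 7.70 FPKM, with a log2 fold change of 0.87 (SE 0.33, limma adjusted p = 0.0505). After scaling it was called as risen (1.04, adjusted p = 0.0243), where 10.2% of all genes rose.

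Between 12 h and 24 h of heat *ETR4* fell again, to 2.28, 4.69 and 7.33 FPKM at Heat-24h, against 19.1, 16.5 and 16.4 FPKM at Heat-12h (log2 fold change -1.77, SE 0.33, limma adjusted p = 0.00112). *ETR7*, of the same subfamily, had 3.30, 5.40 and 1.52 FPKM at Heat-24h, against 9.38, 5.47 and 7.46 FPKM at Heat-12h (-1.01, SE 0.28, adjusted p = 0.0126). The *ETR7* libraries almost touched. In this comparison 17.4% of all genes fell as deposited and 9.57% after scaling, where *ETR4* was still called (-1.35, adjusted p = 0.00703) and *ETR7* was not (-0.66, adjusted p = 0.0298). The *ETR7* call was also lost without replicate 1 of Heat-12h (-0.85), replicate 3 of Heat-12h (-0.996, short of the fold minimum) or replicate 3 of Heat-24h (-0.66), and with only these groups in the fit (adjusted p = 0.174).

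Against Heat-0h no gene of the set was called at Heat-24h, when 42.4% of all genes were called in either direction. The lowest-expressed receptor gene, *ETR6*, had 0.0957, 0.155 and 0.109 FPKM at Heat-24h, against 0.813, 1.15 and 1.56 FPKM at Heat-0h. Its mean was 0.102 times that at Heat-0h, the lowest ratio of the set in any comparison made. On log2(FPKM + 1) this was -0.94 (SE 0.18, limma adjusted p = 0.000361), short of the fold minimum, and with a pseudocount of 0.1 it was -2.50 (adjusted p = 0.000134). After scaling *ETR6* still passed the p threshold (-0.71, adjusted p = 0.000714). *CTR1* (-0.96), *ETR4* (-0.89) and *ETR7* (-0.82) had adjusted p between 0.0115 and 0.0288 as deposited without reaching the fold minimum, in a comparison in which the median of all genes was -0.55. After scaling their values were -0.41, -0.31 and -0.30, with adjusted p between 0.0798 and 0.451.

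*ETR2* stood apart from the other receptor genes at this time. It had 10.2, 12.3 and 10.1 FPKM at Heat-24h, against 6.35, 8.25 and 8.67 FPKM at Heat-0h, and was the only gene of the set whose Heat-24h libraries all lay above those of Heat-0h. As deposited the log2 fold change was 0.44 (SE 0.21, limma adjusted p = 0.0821). After scaling it was called as risen (1.04, adjusted p = 0.000230), where 37.3% of all genes were called in either direction. Replicate 3 of Heat-24h stood apart on this scale, with a receptor sum of 94.9 FPKM, against 47.6 and 49.2 FPKM in the other libraries of the group. Without it the scaled value of *ETR2* was 0.92 (adjusted p = 0.00138), short of the fold minimum.

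One day after the end of heat 4 of the 9 genes had fallen relative to Heat-0h, while 23.3% of all genes had fallen. *EIN2*, which passes the signal on towards the nucleus, had 9.93, 9.12 and 7.18 FPKM at Heat-Recovery, against 22.9, 28.7 and 29.3 FPKM at Heat-0h (log2 fold change -1.52, SE 0.26, limma adjusted p = 0.000520). *CTR1* had 2.33, 2.01 and 1.90 FPKM at Heat-Recovery, against 7.16, 7.68 and 6.55 FPKM at Heat-0h (-1.40, SE 0.30, adjusted p = 0.00216). For both genes these were the lowest levels of the whole heat series by group mean. *ETR5* had 6.09, 5.88 and 4.77 FPKM at Heat-Recovery (-1.13, adjusted p = 0.00450), and *ETR7* had 2.65, 2.57 and 2.48 FPKM at Heat-Recovery, against 6.42, 5.96 and 6.46 FPKM at Heat-0h (-1.03, adjusted p = 0.00930). No library of these 4 genes overlapped with Heat-0h, but as deposited the same held for the uncalled *ETR1*, *NR*, *ETR4* and *ETR6*. After scaling the libraries of *NR*, *ETR4* and *ETR6* overlapped with Heat-0h, and those of *ETR2* all lay above it.

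None of the 4 calls at Heat-Recovery remained after scaling, although *EIN2* (-0.90, limma adjusted p = 0.000571) and *CTR1* (-0.87, adjusted p = 0.00382) still passed the p threshold. The median over the 9 genes was -0.84 as deposited and -0.25 after scaling, beside -0.53 and -0.02 for all genes. Relative to Heat-24h, where 32.4% of all genes were called in either direction, no gene of the set was called. *EIN2* was lower with a log2 fold change of -0.98 (adjusted p = 0.00516, 5.39e-05 after scaling), *ETR5* with -0.88 (adjusted p = 0.0137) and *ETR2* with -0.73 (adjusted p = 0.00962). No library of these genes overlapped between the groups, nor did those of *ETR1*, *CTR1* and *ETR6*. *EIN2* was called without replicate 1 or 3 of Heat-24h or without replicate 1 or 2 of Heat-Recovery, with values down to -1.08, and *ETR5* without replicate 1 of Heat-24h (-1.09). Without replicate 3 of Heat-24h *ETR5* was at -0.62 (adjusted p = 0.0790). *ETR6* had 0.629, 0.616 and 0.572 FPKM at Heat-Recovery, about 5.06 times its level at Heat-24h, with a log2(FPKM + 1) difference of 0.52 (adjusted p = 0.0264).

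**Figure D2:**
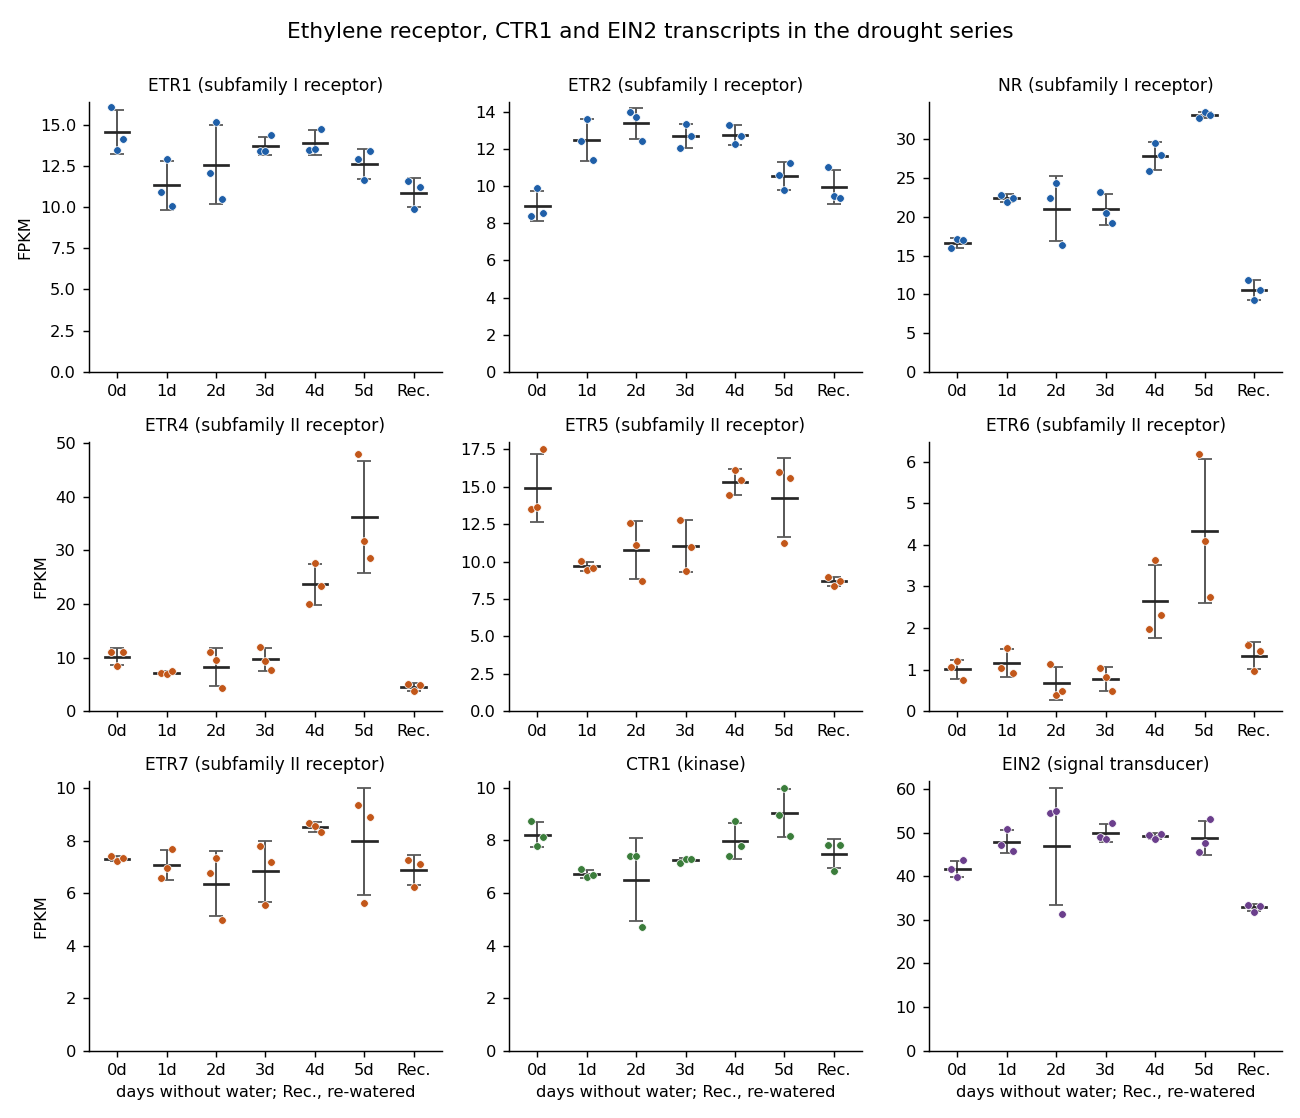
FPKM of each of the 9 genes (y axis, from 0, a scale of its own in each panel) in the drought series by days without water, with the re-watered group last (x axis). Points are the 3 libraries of a group, the horizontal line is their mean and the error bar is 1 SD. *NR* lay between 32.8 and 33.6 FPKM and *ETR4* between 28.7 and 48.1 FPKM at D-5d, and both lay below their D-0d libraries at D-Recovery.

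During the first 3 days of drought none of the 9 genes rose or fell, while 15.1% of all genes tested were called at D-1d, 23.9% at D-2d and 27.7% at D-3d. Smaller shifts passed the p threshold. *ETR2* had 12.5, 13.6 and 11.4 FPKM at D-1d, against 8.40, 9.89 and 8.54 FPKM at D-0d, with log2 fold changes of 0.44 at D-1d, 0.54 at D-2d and 0.47 at D-3d (limma adjusted p between 0.000158 and 0.00147). *ETR5* moved the other way, with 10.1, 9.45 and 9.56 FPKM at D-1d, against 13.5, 13.7 and 17.56 FPKM at D-0d, and with log2 fold changes of -0.57, -0.44 and -0.40 over the same days (adjusted p between 0.00485 and 0.0237). These directions held after scaling. *NR* was higher by 0.41, 0.30 and 0.31 on these days (adjusted p between 0.0119 and 0.0403), and after scaling it passed the p threshold at D-1d alone (0.29, adjusted p = 0.0304). *ETR1* was lower at D-1d (-0.34, adjusted p = 0.0311) and *CTR1* at D-2d (-0.32, adjusted p = 0.0430). After scaling *ETR1* passed the p threshold as lower on all 5 days of drought, with values between -0.45 and -0.28, *CTR1* on days 1 to 4, with values between -0.50 and -0.29, and *ETR7* at D-2d (-0.37). None of these changes reached the fold minimum.

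In replicate 3 of D-2d several genes stood apart from the other libraries of that group. *NR* had 22.5, 24.4 and 16.3 FPKM at D-2d, *ETR4* had 11.0, 9.52 and 4.27 FPKM and *EIN2* had 54.4, 54.9 and 31.3 FPKM. The third value was the lowest each time, and the antenna genes summed to 10120 FPKM in that library, against 3907 and 4148 FPKM in the others. The part of this library in the D-2d values was not tested further than by leaving it out, which changed no call of the set.

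On day 4 *ETR4* was called as risen, and *NR*, *ETR6* and *ETR2* passed the p threshold as higher. *ETR4* had 20.0, 27.6 and 23.3 FPKM at D-4d, against 11.1, 8.37 and 11.1 FPKM at D-0d. It rose by a log2 fold change of 1.14 (SE 0.25, limma adjusted p = 0.000781), the 1 call of 9 in a comparison in which 14.6% of all genes rose, and after scaling it was short of the fold minimum (0.88, adjusted p = 0.00388). *NR* had 26.0, 29.5 and 27.9 FPKM at D-4d, against 15.9, 17.1 and 17.0 FPKM at D-0d (0.70, adjusted p = 6.94e-05), and *ETR6* had 1.98, 3.62 and 2.32 FPKM at D-4d, against 1.06, 1.20 and 0.753 FPKM at D-0d (0.84, adjusted p = 0.00448). After scaling these values were 0.44 and 0.67, both past the p threshold. The libraries of *ETR4*, *NR* and *ETR6* did not overlap between the groups, nor did those of *ETR2*, *ETR7* and *EIN2*. After scaling those of *ETR2* and *EIN2* overlapped, and those of *ETR1*, *ETR7* and *CTR1* all lay below D-0d. *ETR2* was higher by 0.47 (adjusted p = 0.000390), and by 0.22 after scaling (adjusted p = 0.0560).

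On day 5 *ETR4* and *ETR6* rose, 2 of the 9 genes, while 13.5% of all genes rose as deposited and 10.4% after scaling. *ETR4* had 48.1, 31.8 and 28.7 FPKM at D-5d (1.71, SE 0.25, limma adjusted p = 1.47e-05 against D-0d, and 1.54 after scaling). *ETR6* had 6.19, 4.08 and 2.76 FPKM at D-5d (1.37, SE 0.24, adjusted p = 6.52e-05 against D-0d, and 1.26 after scaling). For both genes replicate 1 was the highest, and the SD in FPKM was the largest of the drought series, as was the mean. For *ETR4* the SD was 10.4 FPKM on a mean of 36.2 FPKM, and for *ETR6* 1.73 on 4.34 FPKM. In relation to the mean the SD was larger at D-2d, with 3.53 on 8.26 FPKM for *ETR4* and 0.399 on 0.665 FPKM for *ETR6*. *NR* had 32.8, 33.6 and 33.1 FPKM at D-5d, 1.99 times its D-0d mean and with little spread. Its log2(FPKM + 1) difference of 0.95 had an adjusted p of 2.61e-06 and lay just under the fold minimum, and it was 0.78 after scaling.

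Set against day 3, where 1.58% of all genes rose as deposited and 1.75% after scaling, the same pair of genes rose on day 5. This comparison, too, was added after the values were seen. *ETR4* had 12.0, 9.29 and 7.64 FPKM at D-3d and was 3.75 times higher at D-5d (log2 fold change 1.79, limma adjusted p = 0.000349). *ETR6* had 1.05, 0.824 and 0.477 FPKM at D-3d and was 5.55 times higher at D-5d (1.55, adjusted p = 0.000633). After scaling the values were 1.82 and 1.55. With only these groups in the fit neither was called (adjusted p = 0.0699 and 0.105), a fit in which 25 of all 19963 genes were called, against 801 in the fit with all groups. *NR* was higher by 0.64 (adjusted p = 0.00314). The other 6 genes had differences between -0.25 and 0.34 with adjusted p between 0.101 and 0.910.

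*CTR1* and *EIN2* did not pass the test in the same leaves. *CTR1* had 8.96, 9.99 and 8.17 FPKM at D-5d, against 8.74, 7.79 and 8.12 FPKM at D-0d, a log2 difference of 0.12 with a 95% interval from -0.15 to 0.39. *EIN2* had 45.6, 47.7 and 53.1 FPKM at D-5d, against 41.6, 39.8 and 43.6 FPKM at D-0d. Its difference of 0.22 had a 95% interval from -0.09 to 0.53, which does not reach the fold minimum in either direction. *ETR7* (0.08, interval -0.26 to 0.42), *ETR5* (-0.07, interval -0.38 to 0.24) and *ETR1* (-0.19, interval -0.44 to 0.07) also had intervals within the fold minimum. After scaling *ETR1* was lower by a log2 difference of -0.36 (adjusted p = 0.00762).

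One day after re-watering 3 receptor genes had fallen relative to day 5, in a comparison in which 12.6% of all genes fell as deposited and 10.8% after scaling. *ETR4* had 5.10, 3.70 and 4.86 FPKM at D-Recovery, against 48.1, 31.8 and 28.7 FPKM at D-5d. On log2(FPKM + 1) this was the largest difference of the set in any comparison made, with a D-Recovery mean of 0.126 times the D-5d mean and a log2 fold change of -2.72 (SE 0.25, limma adjusted p = 7.20e-08). *NR* had 11.8, 9.25 and 10.5 FPKM at D-Recovery, against 32.8, 33.6 and 33.1 FPKM at D-5d (-1.57, SE 0.12, adjusted p = 7.24e-09). *ETR6* had 1.59, 0.974 and 1.45 FPKM at D-Recovery, against 6.19, 4.08 and 2.76 FPKM at D-5d (-1.15, SE 0.24, adjusted p = 0.000372). These calls held after scaling, and that of *ETR6* was short of the fold minimum without replicate 1 of D-5d (-0.91, adjusted p = 0.00330).

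Re-watered leaves had less *ETR4* transcript than D-0d leaves. It fell by 1.01 on the log2 scale (SE 0.25, limma adjusted p = 0.00507, and -1.07 after scaling), the 1 call of the set where 6.41% of all genes fell as deposited and 7.18% after scaling. It was just short of the fold minimum without replicate 1 of D-0d (-0.95), replicate 3 of D-0d (-0.95) or replicate 2 of D-Recovery (-0.89). *NR* (-0.62, adjusted p = 0.000689) and *ETR5* (-0.71, adjusted p = 0.00113) were also lower than at D-0d, without reaching the fold minimum. *EIN2* had 33.5, 31.9 and 33.2 FPKM at D-Recovery, below all its other drought libraries except replicate 3 of D-2d, and its difference from D-5d was -0.55 (adjusted p = 0.00331).

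**Figure D3:**
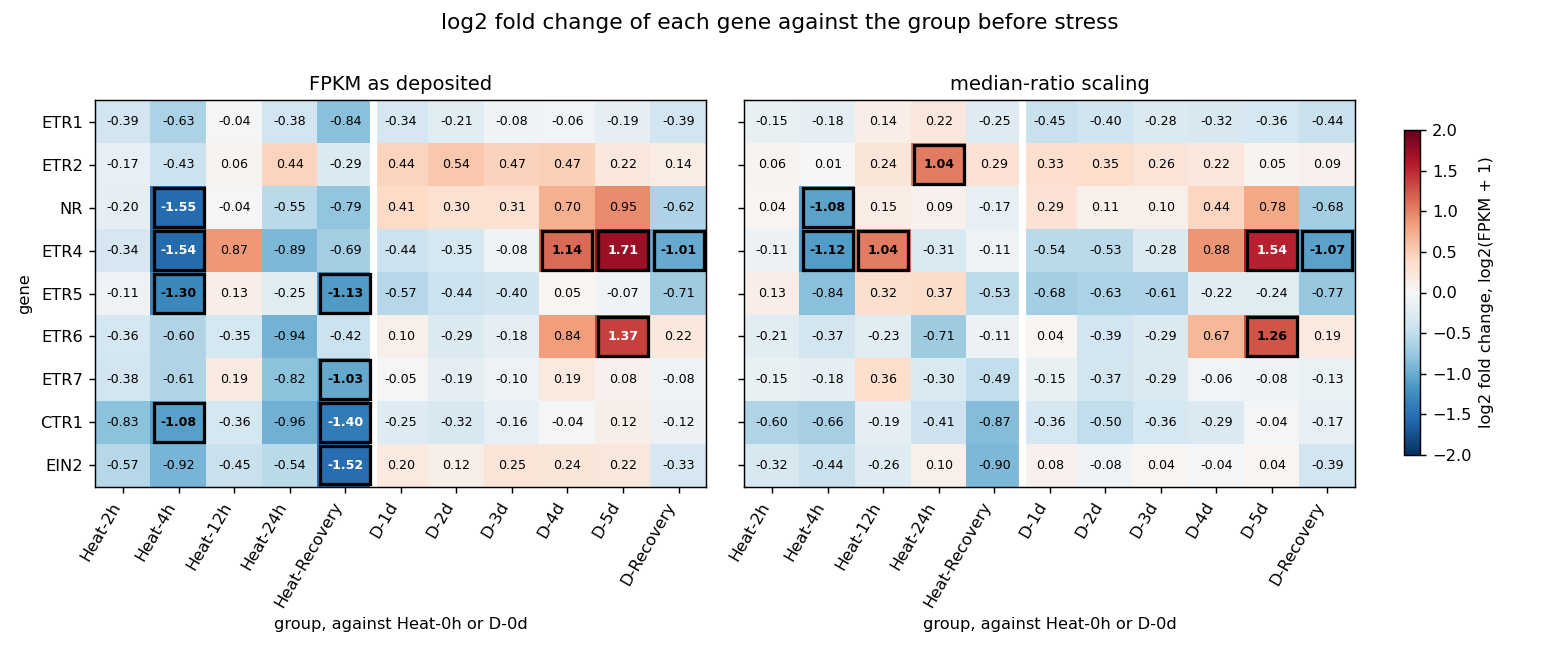
Log2 fold change on log2(FPKM + 1) of the 9 genes (rows) in each stress group against Heat-0h or D-0d (columns), with FPKM as deposited on the left and after median-ratio scaling on the right. Red is higher and blue is lower than in that control group, and black frames mark genes counted as risen or fallen. As deposited, 4 genes are framed at Heat-4h and 4 at Heat-Recovery, and after scaling *NR* and *ETR4* remain framed at Heat-4h and none at Heat-Recovery.

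The receptor genes can also be read as a pool. Summed over the 7 receptors, transcript level was 66.7 ± 4.05 FPKM at Heat-0h, 55.8 ± 10.8 FPKM at Heat-2h, 29.6 ± 8.41 FPKM at Heat-4h, 77.0 ± 12.4 FPKM at Heat-12h, 51.4 ± 11.1 FPKM at Heat-24h and 35.8 ± 3.47 FPKM at Heat-Recovery (SD, n = 3 each). The sum at Heat-4h was the lowest of the heat series also after scaling, at 31.1 ± 2.78 FPKM. In the drought series the sum lay between 71.3 and 75.7 FPKM by group mean from D-0d to D-3d, and was 104.7 ± 6.72 FPKM at D-4d, 119.1 ± 14.8 FPKM at D-5d and 52.8 ± 4.76 FPKM at D-Recovery. After scaling it was 80.9 ± 1.94 FPKM at D-0d, 72.3 ± 0.841 FPKM at D-1d, 69.6 ± 10.7 FPKM at D-2d and 71.3 ± 4.28 FPKM at D-3d. On this scale every library of D-1d, D-2d and D-3d lay below those of D-0d. No test was run on sums.

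The make-up of the pool also differed between groups. *ETR4* made up 13.7 ± 2.86% of the receptor sum at Heat-0h, 8.52 ± 3.13% at Heat-4h and 22.7 ± 1.60% at Heat-12h (SD, n = 3 each). In the drought series its share was 13.8 ± 1.75% at D-0d, 10.1 ± 0.728% at D-1d, 22.5 ± 2.204% at D-4d, 30.0 ± 5.10% at D-5d and 8.58 ± 0.744% at D-Recovery. *NR* made up 28.1 ± 3.63% at D-5d and 22.7 ± 1.25% at D-0d, while *ETR1* made up 10.7 ± 1.14% at D-5d and 19.8 ± 1.81% at D-0d. *ETR2* had its largest share at Heat-24h, 21.8 ± 4.86%. Shares within a library do not depend on the scaling. The 4 subfamily II receptors held 38.1 ± 3.51% of the sum at Heat-24h, their lowest mean in the heat series, and 52.4 ± 2.88% at Heat-12h. In the drought series they held 52.3 ± 5.48% at D-5d and 35.2 ± 1.53% at D-1d.

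**Figure D4:**
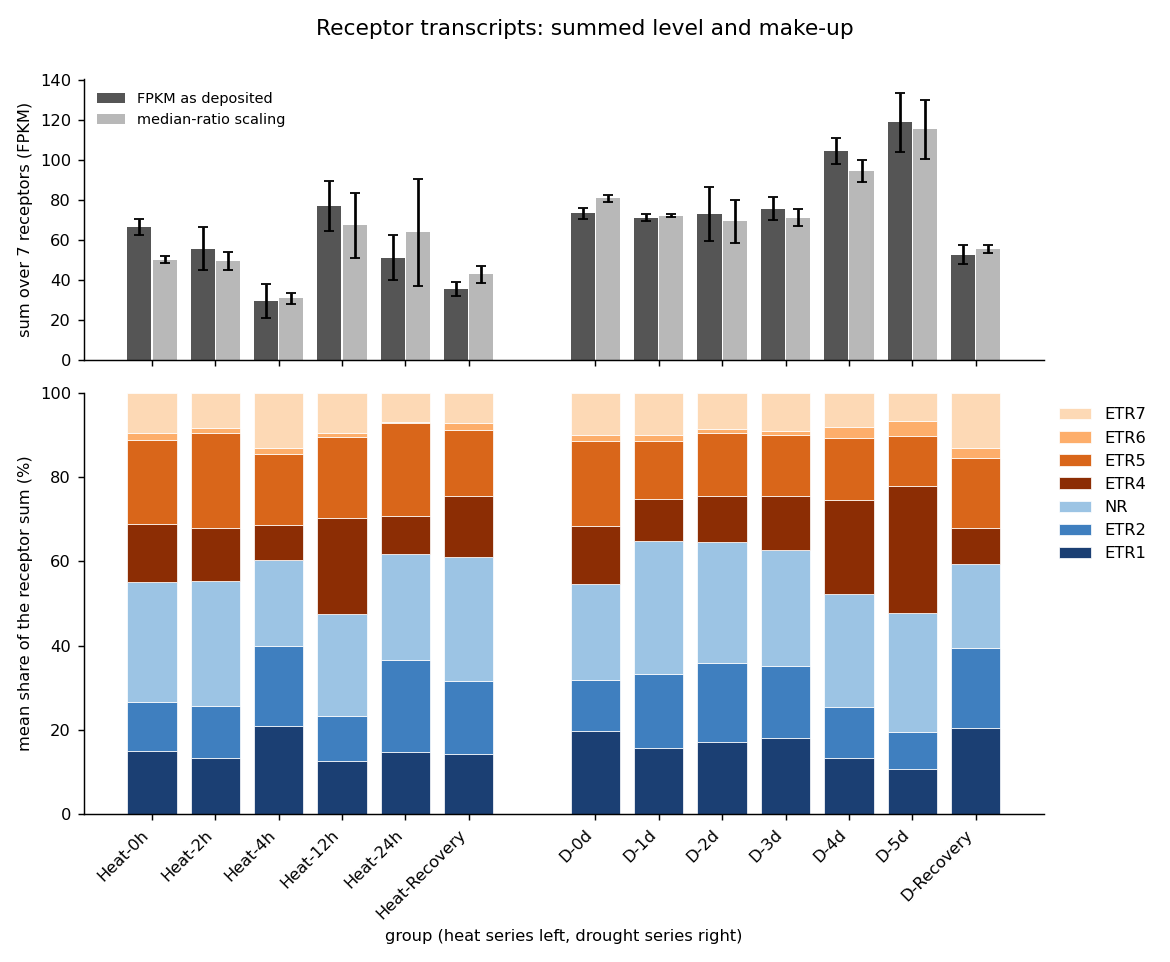
Upper panel, FPKM summed over the 7 receptor genes (y axis, from 0) in each of the 13 groups, as deposited (dark bars) and after median-ratio scaling (light bars), with the mean and 1 SD of 3 libraries. Lower panel, mean share of each receptor in the deposited sum (%), with subfamily I in blue and subfamily II in orange and brown. The *ETR4* share was 22.7% at Heat-12h and 30.0% at D-5d, against 13.7% at Heat-0h and 13.8% at D-0d.

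Correlations ran over the 13 group means, each taken as its difference from the control group of its series, so that Heat-0h and D-0d were 0 for every gene. The members most alike were *ETR7* and *CTR1* (Pearson r = 0.920), *CTR1* and *EIN2* (r = 0.901), and *ETR1* and *ETR5* (r = 0.854). *NR* and *ETR4* had r = 0.830, with 0.866 over the 6 heat groups and 0.853 over the 7 drought groups. By contrast, *CTR1* and *EIN2* had 0.914 over the heat groups and 0.022 over the drought groups. These values describe groups that share libraries and overall level, and no test was made of them. Among the 18414 genes tested in both tables, the non-member closest to *NR* was Solyc08g008030 (r = 0.940) and the one closest to *ETR4* was Solyc08g061480 (r = 0.937). The files give no name for either.

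Other ethylene genes that the study names with an ID were *ACO4* (Solyc02g081190) and *ACS6* (Solyc08g081550), of hormone synthesis, and *ERF5* (Solyc03g093560), a response factor. *ERF5* had 53.3, 34.0 and 46.8 FPKM at Heat-2h and 48.0, 25.4 and 61.7 FPKM at Heat-4h, against 2.14, 6.32 and 5.14 FPKM at Heat-0h. It rose at Heat-2h (log2 fold change 3.11), Heat-4h (3.06) and Heat-12h (2.49, limma adjusted p between 0.00445 and 0.00927 for these groups). At Heat-24h it had 5.41 and 12.5 FPKM and was listed at 0 in the third library. In drought it rose in all 5 groups from D-1d (4.23) to D-5d (2.77), with 34.7, 55.3 and 222.4 FPKM at D-5d, against 8.40, 5.62 and 21.99 FPKM at D-0d.

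*ACO4*, which encodes an ACC oxidase, had 107.1, 103.1 and 146.3 FPKM at Heat-4h, against 448.4, 371.1 and 246.8 FPKM at Heat-0h, and fell by 1.55 on the log2 scale (limma adjusted p = 0.00304, and -1.04 after scaling). It was not called in any drought group against D-0d. *ACS6*, which encodes an ACC synthase, fell at Heat-Recovery (-1.09, adjusted p = 0.0299) as deposited but not after scaling (-0.63). In D-Recovery it had 8.20, 5.19 and 6.37 FPKM, against 52.3, 26.2 and 33.3 FPKM at D-0d (-2.30, adjusted p = 2.32e-05).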

How the data were processed

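RNA-seq of tomato M82 leaves was measured in 18 heat and 21 drought libraries. The authors deposited FPKM per gene and library. The methods of the study name Trimmomatic v0.39, TopHat2 v2.1.1 and Cufflinks v2.2.1 for the heat series, with alignment to ITAG4.0. For the drought series the submitters' notes list Trimmomatic, TopHat and Cuffdiff without settings. In the heat series each read was kept at a single position, so that reads shared by similar genes may be counted for one of them. FPKM are not counts, and the absolute depth is unknown. From the smallest steps of low genes, relative depth was settled for 14 heat libraries (0.944 to 1.15) and 19 drought libraries (0.743 to 1.46). Replicate 2 of D-3d listed 13889 genes at 0, and none of the 9 genes was at 0 in any library.

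A gene was tested where 3 or more libraries of its table reached 1 FPKM, which held for 18923 genes under heat and 19963 under drought. Group means of log2(FPKM + 1) were fitted for each table with limma 3.58.1 in R 4.3.3, which used every group of the table, and the Benjamini-Hochberg adjustment ran over all genes of a comparison. The fit was tested on simulated data. Groups came from the sample labels, and the 3 columns of D-0d carry no label number and were used as that group. The genes, the lists and the comparisons were chosen with earlier results of these data known, and Heat-12h against Heat-4h and D-5d against D-3d were added after the values were seen. The genes named were the 9 members, the closest gene to *NR* and to *ETR4*, and the ethylene genes the study names with an ID. Further pathway genes were not used, because no gene ID matched the RefSeq table at hand (SLM_r2.1). Alternatives were a pseudocount of 0.1, no filter, a fit of only the groups compared, median-ratio scaling, a replicate block, leaving out 1 library at a time, calls without a fold minimum and, added after the values were seen, scaling without replicate 3 of Heat-24h.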

Additional observations from a re-analysis of the deposited data

Results flagged for a closer look

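The differences below are between 2 stages of the same stress, each tested directly, where a gene was called between the later and the earlier stage. D-3d and D-5d are not neighbours, as D-4d lies between them. The falls from D-5d to D-Recovery are given above and not repeated. Both stages had been compared with the same 3 control libraries. In the heat series *NR* was higher at Heat-12h than at Heat-4h by a log2 fold change of 1.51, *ETR4* by 2.41 and *ETR5* by 1.42. At Heat-24h *ETR4* differed from Heat-12h by -1.77 and *ETR7* by -1.01. In the drought series *ETR4* was higher at D-5d than at D-3d by 1.79 and *ETR6* by 1.55. Heat-12h against Heat-4h and D-5d against D-3d were added after the values were seen. With only the compared groups in the fit, the calls of *NR*, *ETR5* and *ETR7* and those at D-5d were lost. Groups of 3 libraries were too small for a test of single libraries that stand apart.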

How the results depend on the processing

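Of the 69 values of single genes that passed the p threshold as deposited or after scaling, all kept their direction under every alternative, except *ETR1* and *CTR1* at D-4d, whose small values ranged from -0.11 to 0.0091 and from -0.10 to 0.0077 when 1 library was left out. Scaling turned the sign of 22 of all 144 values, none of them past the p threshold. With median-ratio scaling 2 genes were called at Heat-4h, 1 at Heat-12h, 1 at Heat-24h, 0 at Heat-Recovery, 1 at Heat-24h against Heat-12h and 0 at D-4d. An alternative chosen after seeing the data, scaling without replicate 3 of Heat-24h, gave 0 calls at Heat-24h and 1 at Heat-24h against Heat-12h. With a pseudocount of 0.1, 4 were called at Heat-24h, 2 at Heat-Recovery against Heat-24h and 2 at D-4d. Of all genes tested, 9226 of 18923, 7791 of 18923 and 7290 of 19963 were called in these comparisons with that setting. With only the compared groups in the fit, 1 was called at Heat-12h against Heat-4h, 1 at Heat-24h against Heat-12h and 0 at D-5d against D-3d. With no minimum fold change, 4 were called at Heat-24h, 4 at Heat-Recovery against Heat-24h, 4 at D-1d, 4 at D-2d, 3 at D-3d, 4 at D-4d, 4 at D-Recovery against D-0d and 5 at D-Recovery against D-5d. Of all 18923 genes tested under heat, 10999 and 8807 were then called in the first 2 of these comparisons. Of all 19963 tested under drought, the counts were 8803, 11868, 12832, 13389, 7084 and 12720 in the order given. With 1 library left out, counts ranged from 0 to 2 at Heat-24h, 1 to 2 at Heat-24h against Heat-12h, 0 to 2 at Heat-Recovery against Heat-24h and 0 to 1 at D-Recovery against D-0d. Without the filter on low values no call changed. The same replicate numbers did not pair the libraries (30 pairs, correlations between -0.22 and 0.31), and with the replicate block the counts stayed at 4 of 9 for Heat-4h and for Heat-Recovery, and no call of the 38 values it covered changed. Drought groups could not be blocked against D-0d, whose columns carry no label number. Receptor sums after scaling were 63.9 ± 26.9 FPKM at Heat-24h and 50.2 ± 1.71 FPKM at Heat-0h (SD, n = 3 each), the opposite order from the deposited sums, with 47.6, 49.2 and 94.9 FPKM in the Heat-24h libraries. They were 43.0 FPKM at Heat-Recovery, 94.7 at D-4d and 80.9 at D-0d.

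Counts over all genes also moved. At Heat-4h 2936 genes were called as deposited, 1739 after scaling and 5011 with no minimum fold change, and at Heat-Recovery 4649, 2582 and 7230. At Heat-12h against Heat-4h 1313 were called, 263 with only these groups in the fit and 2109 with no minimum fold change, and at Heat-24h against Heat-12h 4119 and, with only these groups, 1348. With no minimum fold change the drought comparisons called between 2472 and 13398 genes, against 801 to 6237. With 1 library left out, the lowest counts were 531 of 1052 at Heat-2h, 1827 at Heat-4h, 808 at Heat-12h against Heat-4h and 2647 at Heat-24h against Heat-12h, and D-5d against D-3d ranged from 391 to 1735. With 3 libraries a group and unknown depth, smaller changes of low genes such as *ETR6* are hard to detect.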
